A study of Mus musculus with 12 samples.

Results

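The striatal projection neuron genes described here were Penk, Tac1, Drd2, Pbx3, Foxp1, Meis2, Pde1b, Ngef and Rasgrp2. They were found by gene symbol in the platform annotation of the array and make up 9 of the 8251 genes that the annotation names with exactly 1 symbol. They carried 14 probe sets: 3 for Penk, 3 for Pbx3, 2 for Foxp1 and 1 for each of the other 6 genes. Ngef and Rasgrp2 were taken up because an earlier analysis of the same arrays placed them among the largest rises in the ventral piece, and Drd2 and Rasgrp2 were bright enough to be tested only through their ventral arrays. The ventral comparisons of these 3 genes are therefore given as descriptions, with no p-value. The list as a whole was chosen with earlier results of these arrays known. Ventral p-values of the other genes are therefore no independent support.

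Striatal projection neurons are the GABAergic output cells of the striatum and arise from the lateral ganglionic eminence, below the embryonic cortex. The cells of the indirect pathway make enkephalin from the Penk precursor and carry the dopamine receptor encoded by Drd2, while those of the direct pathway make substance P from the Tac1 precursor. The homeodomain factors Pbx3 and Meis2 and the forkhead factor Foxp1 are known from developing striatal neurons, and Pde1b, Ngef and Rasgrp2 act in signalling downstream of surface receptors. Several of these genes are also active in cortical, amygdalar or olfactory neurons, so no single gene of the list marks the striatum alone.

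The tissue was the cerebral cortex of mouse embryos at E16.5 (embryonic day). The hemisphere was cut into 5 pieces, called medial, dorsal, ventral, rostral and occipital, and the whole hemisphere was the remaining group, which makes 6 groups of 2 arrays from independent dissections. The labels name no strain, genotype or treatment, and they do not say whether a piece held striatum or how many embryos were pooled. One piece is rostral in the sample titles but lateral in the protocol text, and it is called rostral here. Poly(A)+ RNA was read on Affymetrix U74A oligonucleotide arrays, and the value of a probe set is its average difference: mismatch signals are subtracted from perfect-match signals and averaged, in linear intensity units that can fall below 0. Average differences of different probe sets are not comparable as amounts of RNA. In such bulk tissue, fewer cells of a type and less RNA per cell cannot be told apart. P-values measure the spread between dissections, of which there were 2 per piece, and that number limits the precision of every value.

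Values below a floor of 693.5, set from the size of the negative values as their root mean square, were raised to that floor, and differences were taken on the log2 scale. A probe set was tested with limma if 2 or more of its 12 arrays exceeded 1387, 2 times that floor. This left 5832 of 12422 probe sets that are no controls (46.9%), among them 13 of the 14 probe sets of the striatal genes. A difference is called when its Benjamini-Hochberg adjusted p, computed over those 5832 probe sets, is under 0.05. "At least" before a fold means that all arrays on the lower side were at the floor. The probe set that failed the filter was 161164_r_at of Penk, which lay at or under 193.0 on all 12 arrays and gives no level. Drd2 and Rasgrp2 passed this filter only through their ventral arrays, the 2 highest of their 12. Counts of calls are therefore given over the 10 probe sets of the other 6 genes, as a description and not as support. Differences against arrays at the floor follow the floor, and values at 0.5 or 2 times the floor are given where they moved by over 1.5 times.

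Across arrays, the share of negative values ran from 16.9% to 21.7% and 2 arrays of 1 group correlated over probe sets at r = 0.901 to 0.962. In 9 of 12 arrays an array of another group was closer than the own replicate, and apart from rostral 2 and occipital 1 that closest array bore the same replicate number. Rostral 2 and occipital 1 were each other's closest (r = 0.963, against 0.934 and 0.936 with their own replicates), although their numbers differ. The striatal genes followed the same split. Penk (94516_f_at), Tac1, Drd2, Pbx3, Foxp1, Meis2 and Ngef were each higher on rostral 2 than on rostral 1 and higher on occipital 1 than on occipital 2. The difference rostral minus occipital had opposite signs in the 2 replicates for 13 of 13 probe sets, against 60% of all tested probe sets. It was negative in replicate 1 and positive in replicate 2 for 10 of 13, against 29.5% overall. For Tac1 it was -1.74 and 1.49 on the log2 scale, for Penk (94516_f_at) -1.78 and 0.98, and for Pbx3 (93615_at) -1.30 and 1.29. Pde1b, Rasgrp2 and the Penk set 94517_r_at ran the other way, with 0.54 and -1.10 for Pde1b. Rostral against occipital gave 0 calls by limma among the 13 probe sets, 0 of them at an unadjusted p under 0.05, and 0% of all tested probe sets, 62 of which lay at an unadjusted p under 0.05. Whether these 4 arrays were hybridised as labelled was not tested, so rostral and occipital values are those of the libraries labelled so. The ventral differences and the called medial and dorsal ones are also given without them. Shares over all tested probe sets are not given for fits without some arrays, so nothing is read from the counts of calls there.

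**Figure D1:**
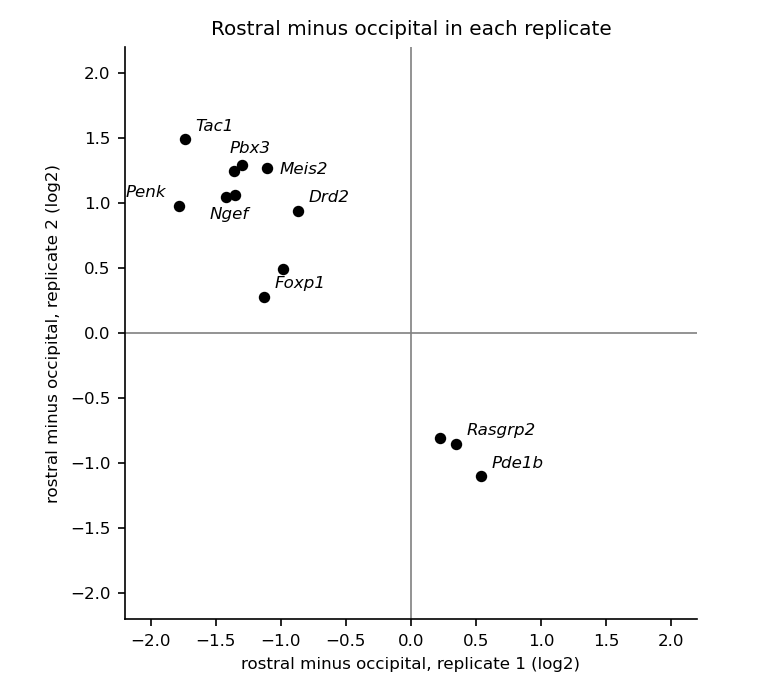
Each point is a probe set of a striatal projection neuron gene, with rostral minus occipital in replicate 1 on the horizontal axis and in replicate 2 on the vertical axis, both in log2 units. All 13 points lie in the upper left or lower right part of the plot, where the replicates have opposite signs; names mark the brightest probe set of each gene.

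The ventral piece was where most of these genes stood highest. Penk, Tac1 and Pbx3 rose there against the mean of the other 4 pieces, by 3.95-fold for Tac1 and up to 10.3-fold for Penk, and Ngef, Rasgrp2 and Drd2 read 7.29-fold, 4.48-fold and 2.05-fold higher. Foxp1, Meis2 and Pde1b did not pass the test. Of the 10 probe sets without Ngef, Rasgrp2 and Drd2, 5 were called higher in the ventral piece and 0 lower. Among all tested probe sets 4.25% were called higher and 5.54% lower; the genes were chosen with these rises known, so nothing is read from their share. Among the same 10 probe sets, both ventral arrays lay above all 8 arrays of the other pieces for both tested Penk sets, Tac1 and every Pbx3 set. That was so for 10.7% of all tested probe sets. For the Penk set 94517_r_at the gap was narrow, 1228.1 on ventral 2 against 1218 on occipital 2. That set passed the filter only through ventral 1 and hemisphere 2. Both ventral arrays lay below all 8 for 0 of the 10 (13.8% of all tested), and nothing is read from these shares either. Without ventral 1 the calls fell to 2 of 10, and without ventral 2 to 4. Without the arrays labelled rostral or occipital they were 6 of 10, with no share of all tested probe sets given for that fit.

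**Figure D2:**
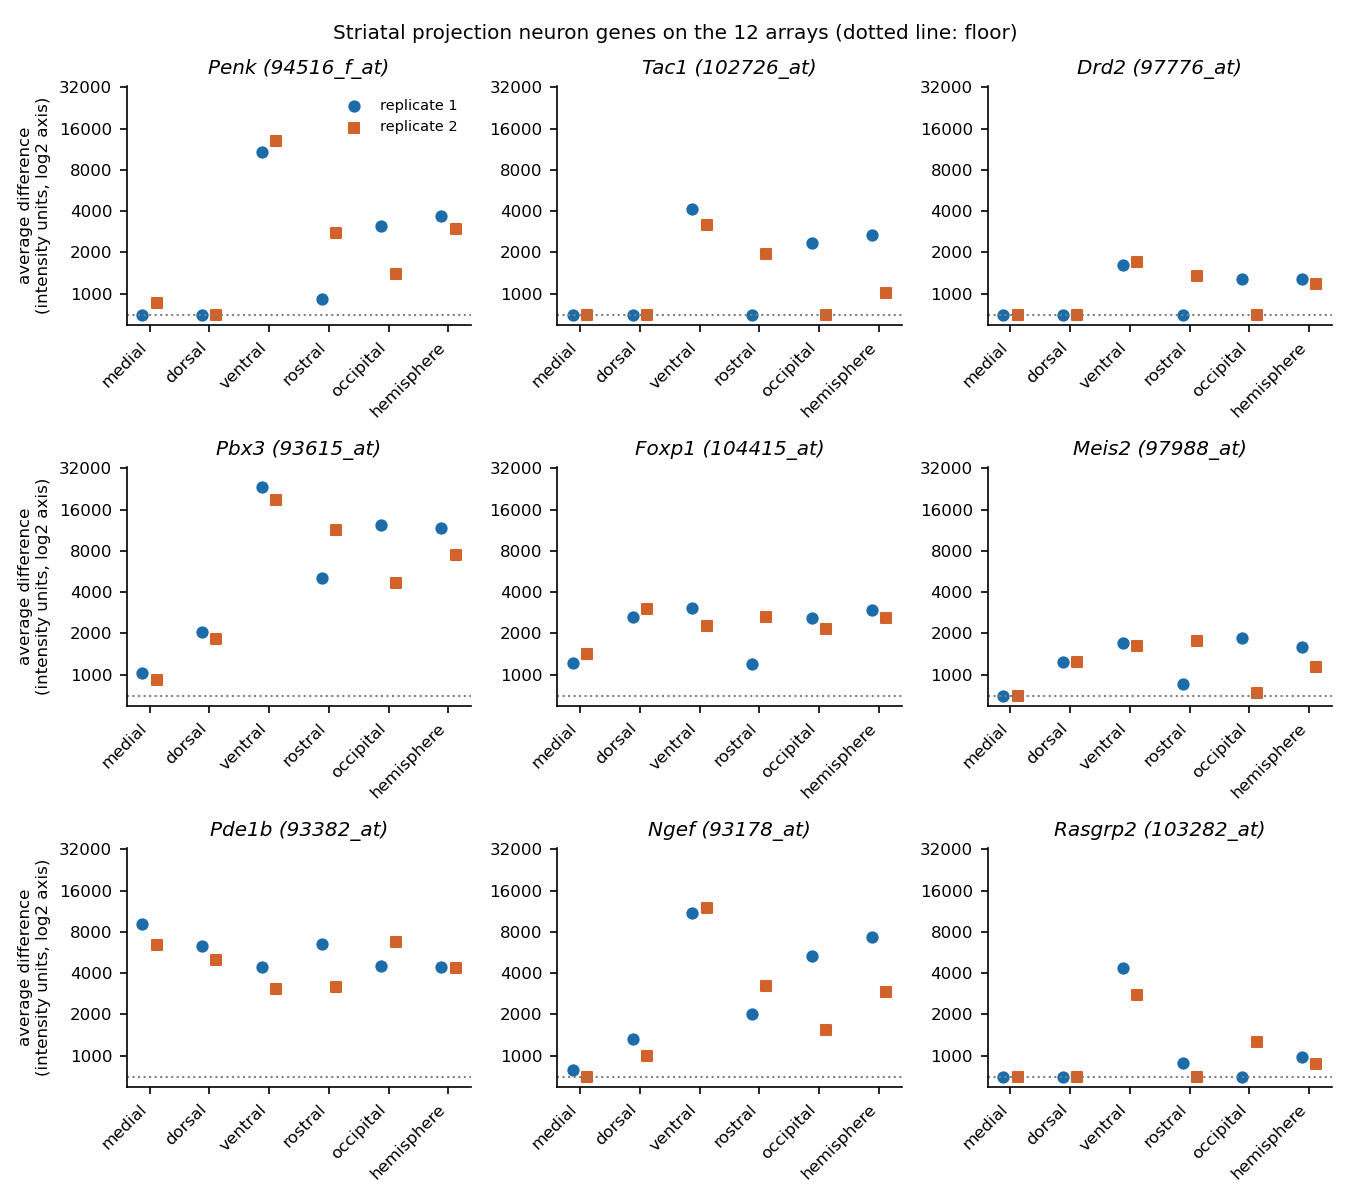
Average difference (intensity units, log2 axis) of the brightest probe set of each of the 9 genes on the 12 arrays; circles are replicate 1, squares replicate 2, and values under the floor of 693.5 are drawn on the dotted line. Penk, Tac1, Drd2, Pbx3, Ngef and Rasgrp2 have both ventral arrays above every other array, Foxp1 and Meis2 do not, and Pde1b runs from 9116 on medial 1 down to 3046 on ventral 2.

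Penk encodes the precursor of the enkephalins. Its probe set 94516_f_at read 367 and 856 on the medial arrays, 625 and 688 on the dorsal, 10804 and 12985 on the ventral, 911 and 2748 on the rostral, 3119.7 and 1396 on the occipital and 3688 and 2935 on the hemisphere arrays. The ventral arrays stood far above all others, the rostral, occipital and hemisphere arrays lay in between, and the medial and dorsal arrays were at or near the floor. The ventral mean was 11900 ± 1540 (SD, n = 2) and that of the other 4 pieces 1340 ± 1030 (SD, n = 8). The difference was 3.36 ± 0.40 (SE) on the log2 scale, 10.3-fold, with a limma adjusted p of 0.00195, and 3.32 and 3.40 in the 2 replicates. Without the rostral and occipital arrays it was 4.02. The call held under each of the 22 other settings, including the loss of either ventral array. Against single pieces, Penk was 15.4-fold lower in the medial piece (adjusted p = 0.00238 in limma), at least 17.1-fold lower in the dorsal (0.00404) and 7.49-fold lower in the rostral (0.0292), where 1 of 10 probe sets was called, against 0.412% over the array. Against the occipital piece the ventral piece read 5.68-fold higher (0.0567) and against the whole hemisphere 3.60-fold higher (0.126), neither called.

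The other readable Penk probe set, 94517_r_at, was far dimmer, and the arrays of a group diverged. It read 1460.0 and 1228 on the ventral arrays, and its brightest array was hemisphere 2 at 2277, against 444 on hemisphere 1. The remaining arrays lay between 206.0 and 1218. Its ventral difference was 0.81 ± 0.38 (SE), with an adjusted p of 0.242 in limma, and 0.043 when only the arrays of the 5 pieces were fitted or when either hemisphere array was left out. It was 0.92 without the rostral and occipital arrays (0.254), 1.32 with the floor at 0.5 times and 0.04 with the floor at 2 times. The 2 probe sets correlated at r = 0.513 over the 12 arrays. By Affymetrix's naming, the ending _f marks a set whose probes can match a sequence family and _r a set designed under relaxed rules.

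Tac1 encodes the precursor of substance P and neurokinin A, the peptides of direct-pathway neurons. It read 59.9 and 122 on the medial arrays, 335 and 210.0 on the dorsal, 4158 and 3154 on the ventral, 398 and 1947 on the rostral, 2322 and 445 on the occipital and 2690.4 and 1002 on the hemisphere arrays. The 6 arrays under the floor were the medial and dorsal ones, rostral 1 and occipital 2, and the ventral pair lay above all others. The ventral difference was 1.98 ± 0.52 (SE), 3.95-fold, with an adjusted p of 0.0468 in limma, and 2.15 and 1.81 in the replicates. The call was lost without a filter on low values (0.193). It was also lost without any 1 of the medial or dorsal arrays (0.0791 to 0.0873), ventral 1 (0.323), ventral 2 (0.187), rostral 1 (0.062) or occipital 2 (0.0515). Without the rostral and occipital arrays the difference was 2.38 (0.0117). The floor moved it, to 2.66 with the floor at 0.5 times (limma adjusted p = 0.0493) and to 1.23 with the floor at 2 times (0.0257). Against the medial and the dorsal piece alone the ventral piece was at least 5.22-fold higher, with adjusted p of 0.0518 and 0.0813.

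Drd2 encodes the inhibitory dopamine receptor of indirect-pathway neurons. It was dim throughout, with 544 and 672 on the medial arrays, 467 and 509.7 on the dorsal, 1626 and 1709.6 on the ventral, 482 and 1332 on the rostral, 1269 and 659 on the occipital and 1267 and 1165 on the hemisphere arrays. Rostral 2, occipital 1 and both hemisphere arrays lay between 1165 and 1332, not far under the ventral pair, and the 6 arrays under the floor were the same ones as for Tac1. The ventral difference was 1.04 ± 0.26 (SE), 2.05-fold, and 1.27 without the rostral and occipital arrays. With the floor at 2 times it was 0.27. Drd2 was at least 2.40-fold lower in the medial than in the ventral piece.

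Pbx3, a homeodomain cofactor that binds DNA together with Meis and Hox proteins, spanned 21.7-fold over the pieces. Its brightest probe set, 93615_at, read 1022 and 917 on the medial arrays, 2038 and 1819.8 on the dorsal, 23535 and 18826 on the ventral, 5041 and 11381 on the rostral, 12429 and 4648 on the occipital and 11819 and 7461 on the hemisphere arrays. No array lay under the floor, and the groups stood in steps, with the medial piece lowest, the dorsal next and the ventral highest. The ventral mean was 21200 ± 3330 (SD, n = 2), against 4910 ± 4590 (SD, n = 8) in the other pieces. The ventral difference was 2.71 ± 0.39 (SE), 6.54-fold, with an adjusted p of 0.00411 in limma. The other 2 probe sets gave 2.87 ± 0.34 (93616_g_at, 7.31-fold, 0.00195) and 2.71 ± 0.36 (96580_at, 6.53-fold, 0.00317). Without the rostral and occipital arrays the 3 differences were 3.95 (93615_at), 4.22 (93616_g_at) and 3.82 (96580_at). The calls of 93615_at and 96580_at were lost without ventral 1 (0.0695 and 0.0527), and that of 93616_g_at was not (0.0425).

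The 3 Pbx3 probe sets gave nearly the same profile at different brightness, with r = 0.976 to 0.995 over the 12 arrays. The set 93616_g_at read 14359 and 14401 on the ventral arrays, 281 and 397 on the medial and 851 and 857 on the dorsal. The set 96580_at read 9787 and 9837 on the ventral arrays and was under the floor on all 4 medial and dorsal arrays, between 392 and 673. They measure 1 gene and are not independent of each other. Foxp1's pair of probe sets correlated at r = 0.365.

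**Figure D3:**
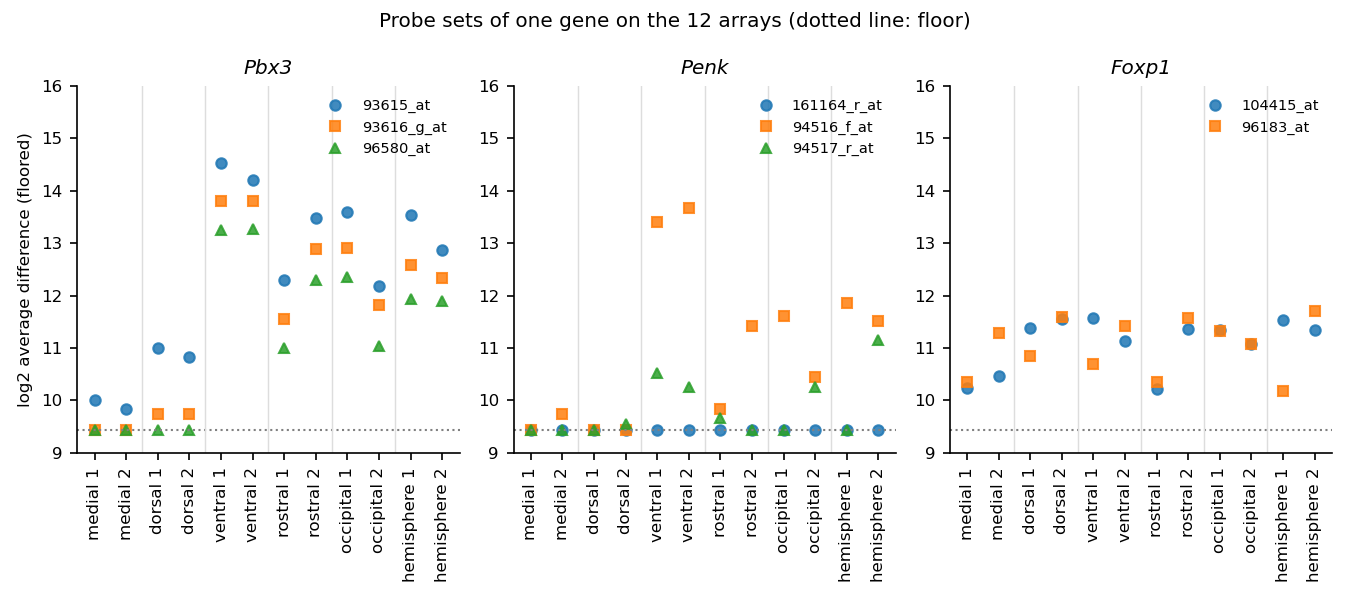
Log2 average difference of every probe set of Pbx3, Penk and Foxp1 on the 12 arrays, with values under the floor drawn on the dotted line. The 3 Pbx3 sets run in parallel from medial to ventral, the Penk set 161164_r_at stays at the floor on all 12 arrays, and the 2 Foxp1 sets part on medial 2, ventral 1 and hemisphere 1.

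Meis2, a homeodomain partner of Pbx proteins, read 639.7 and 505 on the medial arrays, 1230.0 and 1227 on the dorsal, 1688 and 1621 on the ventral, 849 and 1767 on the rostral, 1834 and 733 on the occipital and 1601 and 1133 on the hemisphere arrays. The ventral arrays were not the highest, since rostral 2 and occipital 1 lay above both. The ventral difference was 0.66 ± 0.35 (SE), with an adjusted p of 0.306 in limma. Without the rostral and occipital arrays it was 0.84 and was called (0.0305). The medial difference was -0.91 ± 0.35 (SE), with an adjusted p of 0.27, both medial arrays being under the floor.

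Foxp1, a forkhead repressor, had its highest mean in the dorsal piece with both of its probe sets. The set 104415_at read 1212 and 1412 on the medial arrays, 2648 and 2992 on the dorsal, 3061 and 2247 on the ventral, 1184 and 2627 on the rostral, 2584 and 2161 on the occipital and 2975 and 2597 on the hemisphere arrays. The medial arrays and rostral 1 were low and the rest overlapped. Its medial difference was -0.85 ± 0.27 (SE; limma adjusted p = 0.182) and its ventral difference 0.41 ± 0.27 (0.428), which was 0.79 in replicate 1, 0.02 in replicate 2 and 0.45 without the rostral and occipital arrays. In the set 96183_at, replicate 2 was above replicate 1 in every group except the occipital, with 1164 and 3339 for the hemisphere and 1663 and 2734 for the ventral piece. Its ventral difference was 0.01 ± 0.46 (SE; 0.989), 0.04 without the rostral and occipital arrays, and its sign turned with a floor at 2 times (-0.01) and without any 1 of 5 arrays.

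Pde1b, a calmodulin-dependent phosphodiesterase that is abundant in the adult striatum, ran against the other genes. It read 9116 and 6421 on the medial arrays, 6315 and 5011 on the dorsal, 4429 and 3046 on the ventral, 6509.7 and 3163 on the rostral, 4483 and 6763 on the occipital and 4440.2 and 4392 on the hemisphere arrays. The medial mean was the highest of the 5 pieces and the ventral mean the lowest, a 2.08-fold span. The ventral difference was -0.64 ± 0.29 (SE; limma adjusted p = 0.23) and the medial difference 0.68 ± 0.29 (0.335), so neither was called. Without the rostral and occipital arrays the ventral difference was -0.84 (0.0721). Over the 12 arrays, Pde1b correlated below 0 with each of the other 8 genes, from r = -0.378 with Rasgrp2 to -0.850 with Drd2.

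Ngef, a guanine nucleotide exchange factor that acts downstream of Eph receptors, read 782 and 27.8 on the medial arrays, 1325 and 999 on the dorsal, 11048 and 11928 on the ventral, 2005 and 3198 on the rostral, 5349.6 and 1540.1 on the occipital and 7291 and 2903 on the hemisphere arrays. Both ventral arrays were above all others, and the 2 hemisphere arrays differed more from each other than the ventral ones did. The ventral difference was 2.87 ± 0.46 (SE), 7.29-fold, and 3.64 without the rostral and occipital arrays. Rasgrp2, a calcium- and diacylglycerol-regulated exchange factor for Rap proteins, read 218 and 15.8 on the medial arrays, 299 and 157 on the dorsal, 4325 and 2752 on the ventral, 881 and 497 on the rostral, 592 and 1254 on the occipital and 971 and 864 on the hemisphere arrays. Its ventral arrays were the only ones above 1387, and its ventral difference of 2.16 ± 0.24 (SE), 4.48-fold, was 2.55 in replicate 1, 1.77 in replicate 2 and 2.31 without the rostral and occipital arrays. With the floor at 2 times it was 1.31. Against the medial and against the dorsal piece Rasgrp2 was at least 4.97-fold higher, and Ngef 15.6-fold and 9.98-fold higher.

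Pbx3 was also the gene with calls in the medial and dorsal pieces, against means that include the ventral piece. Against the rostral or the occipital piece alone, limma did not call Pbx3 lower in the medial piece (adjusted p of 0.0737 to 0.205). Against the other 4 pieces, the medial piece had 3 of 10 probe sets called lower, all of Pbx3, and 0 higher; over the array 0.754% were called lower and 0.514% higher. Pbx3 was 7.18-fold lower there by 93615_at (adjusted p = 0.0187 in limma), at least 6.05-fold by 93616_g_at (0.0186) and at least 4.20-fold by 96580_at (0.0364). These calls were lost without a filter (0.0749, 0.0627 and 0.13) and without medial 1, medial 2, dorsal 2, ventral 1 or ventral 2 (0.0541 to 0.286), and that of 96580_at also without dorsal 1 (0.0803) and with the floor at 2 times (-1.32, 0.13). With that floor 93616_g_at read -1.77 (0.0465). Without the arrays labelled rostral or occipital the 3 differences were -2.72 (93615_at), -2.34 (93616_g_at) and -1.91 (96580_at), and 6 of 10 were called. Penk read -1.57 ± 0.40 (SE; limma adjusted p = 0.104) in the medial piece and was not called. Ngef read -2.09 ± 0.46 (SE) there, given as a description, since the mean it is set against includes its ventral arrays.

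In the dorsal piece, 1 of 10 was called lower, Pbx3 by 93616_g_at (-2.22 ± 0.34 SE, adjusted p = 0.0469 in limma), against 0.154% over the array. That call was lost under 15 of 22 other settings, among them the loss of any medial, dorsal, ventral or hemisphere array or of occipital 1 (0.0505 to 0.558). Without the arrays labelled rostral or occipital the difference was -1.89, and 3 of 10 were called, as they were without rostral 1; without occipital 2 there were 2. The rostral and the occipital piece had 0 of 13 called by limma against the other 4 pieces and 1 each at an unadjusted p under 0.05. Over the array they had 0% called, with 104 and 126 of 5832 probe sets at an unadjusted p under 0.05. Medial against dorsal had 0 of 13 called by limma and 1 at an unadjusted p under 0.05, against 0.0686% called overall.

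**Figure D4:**
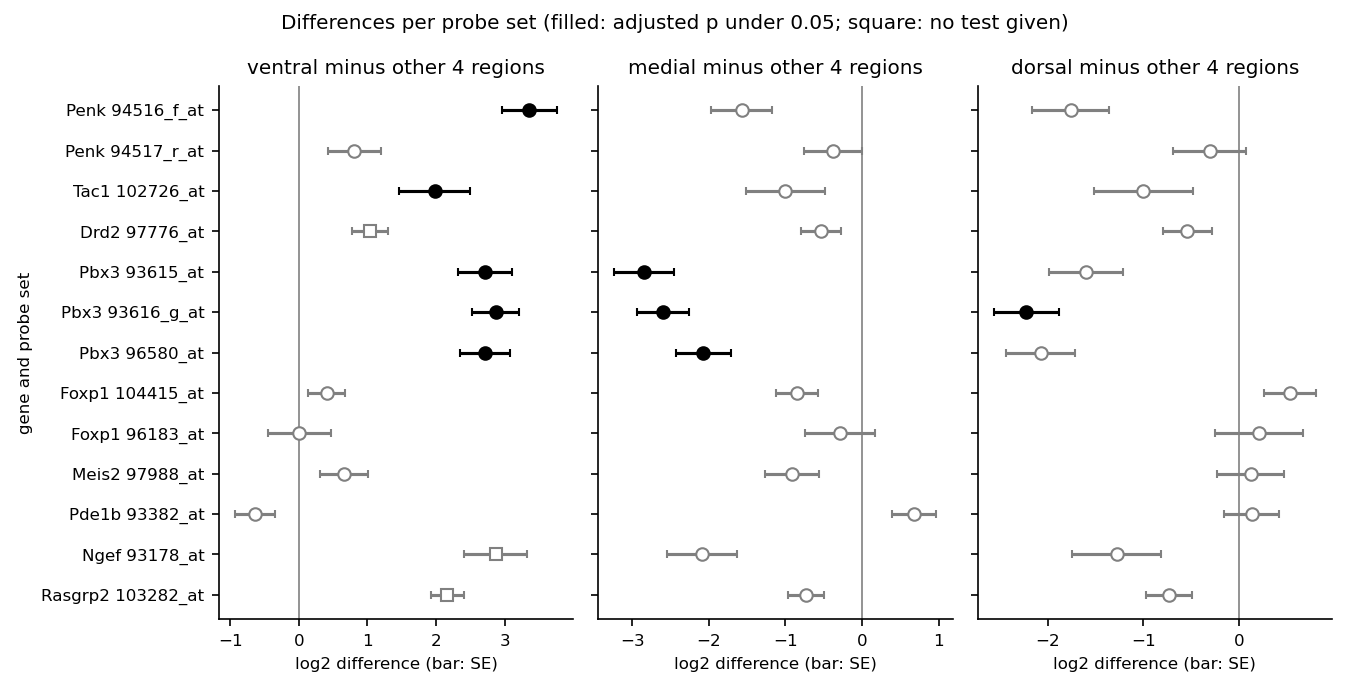
Log2 differences of the 13 probe sets between 1 piece and the mean of the other 4 (ventral, medial and dorsal from left to right), with bars for the SE; filled points are called, open circles are not, and squares mark Drd2, Ngef and Rasgrp2, for which no test is given in the ventral panel. In the medial and dorsal panels Drd2, Ngef and Rasgrp2 are open circles and are descriptions too, since those means include the ventral piece. The ventral panel runs from -0.64 for Pde1b to 3.36 for Penk, and Pbx3 holds the calls of the medial and dorsal panels.

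Set against the ventral piece alone, the dorsal piece was lower by 4 of 10 probe sets without Ngef, Rasgrp2 and Drd2 (2.79% over the array). The medial piece was lower by 4 of 10 (5.2%). It was set against the ventral piece because an earlier account of these arrays had the list lowest and highest in these pieces. Nothing is therefore read from these counts, and the adjusted p are no independent support. Without any 1 of the rostral, occipital or hemisphere arrays the medial count was 6, and without all 4 labelled rostral or occipital it was 7. For Pbx3 the medial values were 21.7-fold lower by 93615_at, at least 20.7-fold by 93616_g_at and at least 14.1-fold by 96580_at, with adjusted p of 0.00108 to 0.00176 in limma. The dorsal values were 10.9-fold, 16.8-fold and at least 14.1-fold lower (0.00246 to 0.00595). The call of 93615_at between dorsal and ventral was lost without dorsal 1 (0.0528), dorsal 2 (0.0632) or ventral 1 (0.0593). The F-test over the 5 pieces called 4 of 10 (3.26% over the array), which were Penk by 94516_f_at (0.0131) and the 3 sets of Pbx3 (0.00547 to 0.0088). Without either ventral array it called 0 in limma, and over the ventral, medial and dorsal pieces alone 7. Tac1 (0.257) did not pass it.

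All 6 groups were ordered by their mean floored log2 value. Penk, Tac1, Pbx3 and Ngef shared the sequence ventral, hemisphere, occipital, rostral, with the medial and dorsal pieces last. For Penk, Tac1 and Pbx3, limma called no step between neighbours of that order. The step from occipital to rostral was 0.00 in Pbx3 93615_at, and its sign differed between the replicates in each gene, while hemisphere and occipital were 0.09 apart in Pbx3 93616_g_at. The largest step was 2.49 ± 0.43 (SE) from rostral to dorsal in Pbx3 93616_g_at (adjusted p = 0.144), and the step from ventral to hemisphere in Penk was 1.85 ± 0.50 (SE; 0.126). The whole hemisphere can be set beside the mean of the 5 pieces. Its mean was 3310 against 3450 for Penk, 5630 against 5310 for Pbx3 93616_g_at and 4420 against 5530 for Pde1b. For Tac1 (1850 against 1320) and Ngef (5100 against 3820), the 2 hemisphere arrays lay on either side of the mean of the pieces, and for Rasgrp2 both lay below it (918 against 1100).

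Over the 12 arrays, the log2 profiles of Penk, Tac1, Drd2, Pbx3 and Ngef ran together, for example at r = 0.958 for Penk and Drd2, 0.954 for Tac1 and Drd2 and 0.959 for Pbx3 and Ngef. Foxp1 and Rasgrp2 correlated least among the genes other than Pde1b (0.266). All points share the same 12 arrays, and the ventral pair sets much of each value. Among 4553 other genes, the profile most like that of Penk was Chchd10 (r = 0.982), followed by Resp18 (0.962) and Cdr2 (0.952). Cdr2 (0.969), the LIM-homeodomain gene Lhx8 (0.953) and Tpgs2 (0.944) were nearest to Tac1, and Lhx8 (0.986), Cdr2 (0.971) and Chchd10 (0.953) to Drd2. Pbx3 ran closest to Gad1 (0.976), which encodes a GABA-synthesising enzyme, to Slc32a1 (0.972), the vesicular GABA transporter, and to Ube2e3 (0.954). Ngef ran closest to Prkcb (0.970), Tpgs2 (0.957) and Cdr2 (0.957), and Rasgrp2 to Ccn3 (0.951), Sowaha (0.947) and Nxph1 (0.946). The nearest genes were Hmgb3 for Foxp1 (0.895), followed by Ighm (0.873) and Gsto1 (0.841), Phyh for Meis2 (0.925), followed by Hmgb3 (0.890) and Ighm (0.880), and Gna11 for Pde1b (0.902), followed by Parp2 (0.885) and Zc3h14 (0.872).

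The proximal promoters of 3 genes that stood high together in the ventral piece are shown because they share that profile. The tables of RefSeq promoters (GRCm38.p6) matched 7 of the 9 genes with 12 windows; the 250 bases before the transcription start are printed 5′ to 3′ on the gene's strand. They lie at chr6:7554811-7555060 on the plus strand for Tac1 (51.2% G and C), chr9:49340153-49340402 on the plus strand for Drd2 (68.8%) and chr1:87573871-87574120 on the minus strand for Ngef (59.6%). Capitals mark matches, on either strand, to 3 letter strings: TGACAG, a core bound by Meis proteins, TGTTTAC, a forkhead core, and TGACG, a cyclic AMP response half-site.
Tac1: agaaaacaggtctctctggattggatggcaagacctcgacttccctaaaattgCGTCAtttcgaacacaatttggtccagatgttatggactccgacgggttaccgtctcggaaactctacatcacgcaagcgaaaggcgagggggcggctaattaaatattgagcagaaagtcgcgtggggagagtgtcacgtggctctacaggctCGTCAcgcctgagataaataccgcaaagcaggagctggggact
Drd2: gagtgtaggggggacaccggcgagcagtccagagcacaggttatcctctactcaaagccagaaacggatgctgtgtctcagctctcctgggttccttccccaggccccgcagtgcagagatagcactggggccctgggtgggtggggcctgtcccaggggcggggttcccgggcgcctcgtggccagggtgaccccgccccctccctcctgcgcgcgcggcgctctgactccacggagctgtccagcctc
Ngef: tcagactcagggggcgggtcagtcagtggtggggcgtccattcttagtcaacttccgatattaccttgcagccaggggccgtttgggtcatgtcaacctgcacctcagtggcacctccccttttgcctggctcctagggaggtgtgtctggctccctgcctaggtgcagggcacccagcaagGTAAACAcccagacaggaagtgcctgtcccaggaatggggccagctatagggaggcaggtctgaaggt
The Tac1 window held the half-site on the opposite strand 197 and 43 bases before the start. The Ngef window held the forkhead core on the opposite strand 68 bases before the start. The Drd2 window held none of the 3 strings, and no 2 matches overlapped. Of all 32851 windows of this length, 17.8% held the half-site, 3.17% the forkhead core and 15.9% the Meis core, so the matches are descriptions and not sites. Among the other windows, 1 of Foxp1 held the half-site (224 bases before the start) and 1 the Meis core (151), and windows of Pde1b held the Meis core (113 and 12) and the forkhead core (99).

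Other genes of the striatal programme were compared in the ventral piece by the same test. These lists were also chosen with earlier results of the arrays known, so nothing is read from the share called. Of 97 listed genes 55 were on the array and 25 were tested, of which 3 were called higher, 0 lower and 22 neither, against 4.25% higher and 5.54% lower over the array. Their median ventral difference was 0.33 on the log2 scale, against -0.02 over all tested probe sets. Among striatal signalling genes 2 of 7 rose: Rgs2, a regulator of G protein signalling (1.50, limma adjusted p = 0.025), and Plxnd1, a semaphorin receptor (1.43, 0.0323). Hpca (0.95, 0.121), Nnat (0.46, 0.0852), Epha4 (-0.89, 0.222) and Crym (-1.36, 0.316) were not called. Of the partners and receptors of the 9 genes 1 of 11 rose, Rap1gap, which switches Rap off (1.07, 0.0245), while Meis3 (0.74), Cpe (0.52), Pam (-0.98) and Pknox1 (-0.50) were not called. The 4 tested factors of the lateral ganglionic eminence were not called, with 1.08 for Dlx5, 0.63 for Dlx6, 0.33 for Dlx1 and 0.06 for Dlx2. The same held for the direct-pathway genes Sfxn1 (0.46) and Eya1 (0.23) and the indirect-pathway gene Six3 (0.67). The opioid and tachykinin receptor genes Oprd1, Oprm1, Oprk1, Tacr1 and Tacr2 did not pass the filter. Of the 29 tested probe sets 4 were called, 8 once the 4 rostral and occipital arrays were left out and 0 without dorsal 2 or either ventral array.

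**Figure D5:**
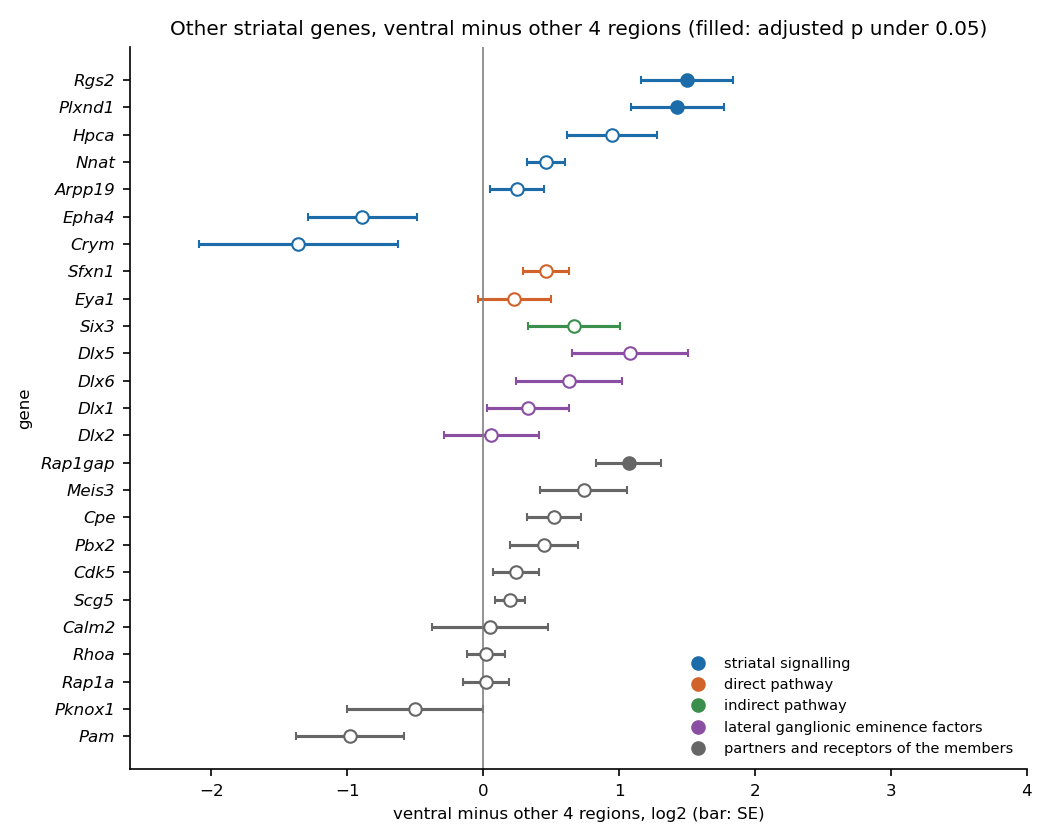
Ventral minus the mean of the other 4 pieces (log2, bar SE) for the 25 tested genes of 5 lists of the striatal programme, coloured by list; filled points are called. Rgs2, Plxnd1 and Rap1gap are the filled points, and 22 genes are open.

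Marker lists named for other cell types had calls in the ventral piece too, where 4.25% of all tested probe sets were higher and 5.54% lower. The only tested genes of the striatal marker list were Penk, Tac1, Drd2, Foxp1 and Meis2, so its sum restates the genes above and is no separate reading. It was 21300 to 21700 on the ventral arrays, 11900 of it from Penk, and 2820 to 11100 on those of the other pieces. Sums follow the brightest probe sets and are no amounts of RNA. Rgs9 and Pdyn of the same list did not pass the filter and reached 280.5 and 361 at most, under the floor on all 12 arrays. Ppp1r1b, Drd1 and Adora2a, further defining genes, had no probe set that the annotation names with that symbol alone. The GABAergic interneuron list had 6 of 14 genes higher in the ventral piece: Sst (2.83), Slc32a1 (1.97), Calb1 (1.95), Gad1 (1.87), Npy (0.84) and Lhx6 (0.69). Npy had a higher mean in the dorsal piece (26700) than in the ventral (15800). The 1 lower gene was Cxcr4 (-1.13), and Dlx1 (0.33), Dlx2 (0.06), Sox6 (0.35) and Reln (0.38) were not called. Gad1 and Slc32a1 serve GABAergic neurons in general, striatal projection neurons among them. Dlx1, Dlx2 and Dlx5 also stand in the lateral ganglionic eminence list. These shared genes do not set interneurons apart from striatal projection neurons. The interneuron list summed to 139000 to 158000 on the ventral arrays, 38200 to 46300 on the medial and 59400 to 64400 on the dorsal. On the rostral arrays it summed to 88200 to 93700 and on the occipital to 80100 to 102000. The pallial projection neuron list had 7 of 12 lower and 1 higher, Nrgn (2.17). It summed to 99700 to 110000 on the ventral arrays against 173000 to 243000 on those of the other pieces. Of the radial glia and proliferation list 6 of 12 were lower, with sums of 85200 to 90800 against 91100 to 118000. The piriform and amygdala list had 1 of 4 higher (7430 to 8520 against 2370 to 10400), and the hypothalamus and thalamus list 1 of 2 (4270 to 6870 against 1500 to 5010), its markers Pomc, Avp and Hcrt not passing the filter. The median ventral difference was -1.20 for the choroid plexus list (1 tested gene), 0.07 for blood, vessel and meninges (7) and 0.40 for glia and microglia (4). The part of these cell types in the ventral differences of the striatal genes was not tested. The beta-actin 5' to 3' ratio, a measure of cDNA length, was 0.665 on ventral 1, under the 0.706 to 0.831 of the other pieces of that number, and 0.856 on ventral 2, within their 0.840 to 0.887.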

How the data were processed

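The measurements are 12 Affymetrix U74A arrays in 6 groups of 2. The deposited value is an intensity, the average difference per probe set, per the labels, and the values had been scaled by the authors: each array had nearly the same 2% trimmed mean, from 2501.6 to 2501.9. The software used for this is not given in the sources used here, since the labels' account breaks off. All 12 value columns were used and 0 were left out. Probe sets were named through the platform annotation, and 66 control sets were left out.

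Values under the floor of 693.5 were raised to it and log2 was taken. Probe sets above 1387 on at least 2 arrays were fitted together in R 4.3.3 with limma 3.58.1, with 1 mean per group, 6 residual and 2.86 prior degrees of freedom. Tests are two-sided, with Benjamini-Hochberg adjustment within each comparison. Each piece was compared with the mean of the other 4, weighted equally. Folds come from the floored log2 means. The replicate numbers were not used as a block. The fit was tested on simulated data.

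All probe sets of the 9 genes are named. A gene stands under its brightest probe set. For each, the 3 genes with the highest Pearson r over the 12 arrays are named, and from each list the called genes and up to 4 others by size of difference. The members, the lists and the comparison of medial with ventral were chosen with earlier results of these data known.

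The alternatives were other floors, filters, scalings and variance models, replicate number as a block, fits restricted to the arrays compared or leaving out those labelled rostral or occipital, and each array left out in turn. RefSeq promoters were searched on both strands.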

Additional observations from a re-analysis of the deposited data

How the results depend on the processing

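The main counts of called probe sets are given over the 10 without Drd2, Ngef and Rasgrp2. They were 4 over the 5 pieces (3.26% of all tested probe sets) and 5 higher in the ventral piece (4.25%). The medial piece had 3 lower (0.754%), the dorsal 1 lower (0.154%), and the rostral and the occipital 0 (0%). Dorsal against ventral had 4 (2.79%) and medial against ventral 4 (5.2%). The other striatal genes had 4 called in the ventral piece. The dorsal count was 0 with the floor at 0.5 or 2 times its value, with quantile normalization, on the arcsinh scale, without a filter and with only the arrays compared. Without a filter, which adds dim probe sets to the adjustment, the count over the 5 pieces was 1 and the medial count 0. A filter on at least 6 arrays, which drops Tac1, Drd2, Rasgrp2, Meis2 and the Penk set 94517_r_at, left 4 ventral calls among 7 probe sets. Without the arrays labelled rostral or occipital the counts were 7 over the remaining pieces, 6 for ventral, 6 for medial and 3 for dorsal. The other striatal genes then had 8. Shares of all tested probe sets are not given for that fit, so nothing is read from these counts, and the cause was not tested.

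Leaving out 1 array at a time left 1 array in its group, and several calls were lost that way, as given above. Over all other settings, these included, the ventral difference ran from 2.82 to 4.02 for Penk 94516_f_at and from 1.23 to 2.66 for Tac1. For Pbx3 it ran from 2.53 to 3.95 by 93615_at. The ventral difference of Foxp1 96183_at turned sign with the floor at 2 times (-0.01) and when 1 array was left out (-0.35 to 0.37). Over all tested probe sets the ventral calls, 571 as fitted, were 91 without ventral 1 and 155 without ventral 2.

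With replicate number as a block the other striatal genes had 10 calls and all tested probe sets 938. The ventral calls were 5 of the 10 probe sets without Drd2, Ngef and Rasgrp2, as before. Deviations of same-numbered arrays correlated at -0.06 to 0.562 over 15 pairs of groups, over 0.1 in 14, the exception being rostral with occipital. Numbers were taken to pair arrays only where every pair exceeded 0.1, so the block was not used for the reported values. That rule failed only through the rostral and occipital arrays, whose labelling was not tested. Depth, here signal over background, limits Drd2, Tac1 and Rasgrp2, which were under the floor on 6 of 12 arrays.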
